A study of Mus musculus with 4 samples.

Results

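Foxp3 regulatory T cells (Treg) were examined among single-cell transcriptomes of mouse liver. A Treg was a barcode with at least 500 genes, at most 20% mitochondrial UMIs, at least 2 UMIs of Cd3d, Cd3e and Cd3g together, at least 1 UMI of Foxp3, and no UMI of Cd8a, Cd8b1, Cd79a or Cd79b. A UMI is 1 counted mRNA molecule. The rule found 204 Treg among 31290 kept cells, with 34 in the normal chow diet (NCD) library, 61 and 60 in replicates 1 and 2 of the high-fat diet (HFD) group, and 49 in the library of the group given Jiangtang Qingre Formula (JQF). The mice were male C57BL/6J. NCD mice received chow, HFD mice a high-fat diet, and JQF mice the same high-fat diet followed by the oral herbal formula, while NCD and HFD mice received distilled water in its place. The livers were perfused and digested, and the labels give no age of the mice and name the cells as hematopoietic stem cells or immune cells, which does not describe the mixture. NCD and JQF had 1 library each, so diet or treatment cannot be told apart from the library in those groups.

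Treg are CD4 T cells that restrain immune responses. The transcription factor FOXP3, encoded on the X chromosome, holds their identity, and they consume interleukin-2 through the high-affinity receptor chain CD25 (Il2ra). They block costimulation through CTLA-4 and carry the TNF receptors OX40 (Tnfrsf4) and GITR (Tnfrsf18). In tissues, activated Treg can show KLRG1, the interleukin-33 receptor ST2 (Il1rl1) and the repair factor amphiregulin (Areg), whereas resting Treg recirculate through lymphoid organs with CCR7.

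The cells were chosen by measured UMIs, so Foxp3, Cd3, Cd8 and Cd79 values are described and not tested. Of the 204 Treg, 71 held exactly 1 Foxp3 UMI, 52 held 2 and 81 held 3 or more, up to 22. Foxp3 summed over Treg reached 252 CPM in NCD (CPM is UMIs of a gene scaled to a common library total), 331 and 397 in HFD replicates 1 and 2, and 280 in JQF, against 1.65 to 4.0 in barcodes with at most 100 UMIs. Not 1 of 1847 B cells held a Foxp3 UMI, which allows a share of up to 0.162% by 3 counts (exact upper limit 0.1995%). At the other edge of the rule, 10 Treg had a CD3 sum of exactly 2, while 9 Foxp3-positive cells had a CD3 sum of 1 and 30 had none. Those 30 cells had few other Treg markers, since 14 lacked all 5 and 20% held at least 3. A further 36 Foxp3-positive T cells were left out for a Cd8 UMI and 26 for a Cd79 UMI. The label was met by the other markers as a set, though not by the share of cells with Il2ra alone. At least 3 of Il2ra, Ctla4, Ikzf2, Tnfrsf4 and Tnfrsf18 were found in 62.0% of Treg with 1 Foxp3 UMI and in 87.2% of those with more, against 27.8% of 1792 Foxp3-negative CD4 T cells. By library this share of Treg was 97.1% in NCD, 85.2% and 68.3% in HFD replicates 1 and 2, and 69.4% in JQF. Among Foxp3-negative CD4 T cells it was 40.5%, 29.6%, 26.6% and 24.2% in the same order. The part of these differences in the group comparisons was not tested. Il2ra was found in 31.0% of Treg with 1 Foxp3 UMI, 51.9% of those with more and 32.0% of Foxp3-negative CD4 T cells, and in 32.7% of JQF Treg against 40.4% of Foxp3-negative CD4 T cells of that library. Median depth was 5219 UMIs for Treg with 1 Foxp3 UMI, 7726 for the others and 8100.5 for the Foxp3-negative CD4 T cells. Cd4 itself was found in 63.7% of Treg and was not part of the rule for them.

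Depth differed between libraries. The median Treg held 12776 UMIs in NCD, 6524 and 5348 in the HFD replicates and 6923 in JQF, and ribosomal genes took a median of 9.46%, 12.9%, 15.7% and 16.2% of UMIs in the same order. The libraries shared 12 to 27 barcodes among kept cells and 0 among Treg. Macrophage and neutrophil markers came mostly from few Treg, whereas UMIs of the B cell list were found in 28 to 51 Treg per library. Over 20 UMIs of macrophage, neutrophil, endothelial and hepatocyte markers together were held by 6 Treg of NCD, 4 and 5 of the HFD pair and 1 of JQF, and 12 Treg in all were among the predicted doublets. Macrophage markers (9 genes, Lyz2 included) summed to 7.38 CPM in NCD Treg with 6 of the 9 at 0, to 521 and 876 CPM in HFD Treg with 1 and 0 at 0, and to 88.7 CPM in JQF Treg with 2 at 0. In the HFD replicates 93.7% and 88.7% of these UMIs came from 3 cells. Neutrophil markers reached 1789 CPM in HFD replicate 1 and 1319 CPM in JQF, where 3 cells held 99.4% and all of them.

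The share of Treg among all kept cells was 0.569% in NCD, 0.936% and 0.585% in HFD replicates 1 and 2, and 0.574% in JQF. As kept cells include every liver cell type recovered, the share was also taken among T cells (CD3 sum at least 2, no Cd79), where it was 4.20% in NCD (exact 95% interval 2.92% to 5.82%), 3.02% (2.32% to 3.86%) and 2.82% (2.16% to 3.61%) in HFD, and 1.32% (0.975% to 1.74%) in JQF. The JQF interval lay below the other 3. The number of Treg was alike in HFD and JQF, and the T cell denominator was 3725 in JQF against 2021 and 2131 in HFD. The order of the first 3 libraries depended on the denominator. Among Treg plus Foxp3-negative CD4 T cells, Treg made up 12.3% (8.68% to 16.8%) of these cells in NCD, 14.8% (11.5% to 18.6%) and 17.8% (13.8% to 22.3%) in HFD, and 5.05% (3.76% to 6.62%) in JQF. These comparison cells had to hold a Cd4 UMI and Treg did not. With Cd4 required of both, the shares were 9.36% for NCD, 8.36% and 13.4% for the HFD replicates and 3.15% for JQF. Deeper cells are more likely to show a Foxp3 UMI. When each cell was thinned to 2000 UMIs before the rule was applied, the share of T cells was 2.20%, 2.01%, 1.80% and 0.679%, so that NCD and HFD came closer while JQF remained lowest. At a minimum of 2 Foxp3 UMIs the shares were 2.72%, 2.08%, 1.88% and 0.779%. No test was made with single NCD and JQF libraries, and the intervals cover counting error only.

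**Figure D1:**
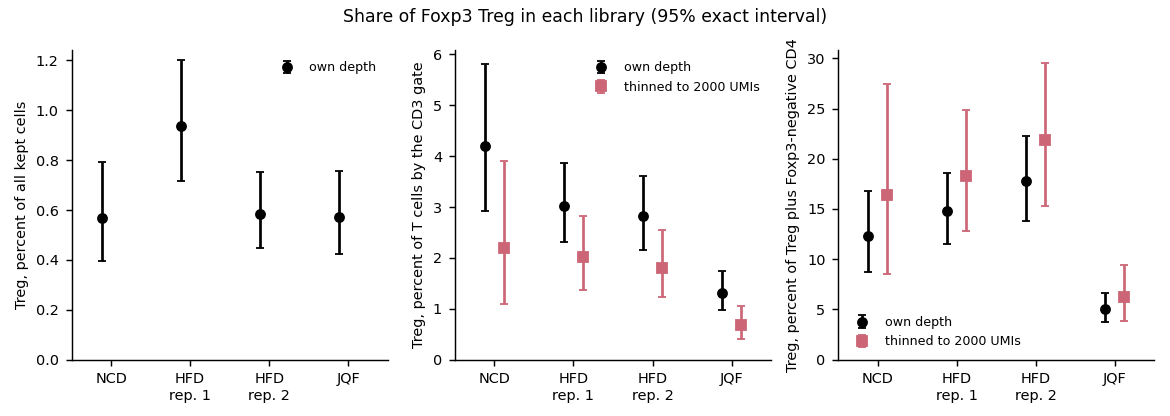
Percent of Treg in each library among all kept cells, among T cells by CD3, and among Treg plus Foxp3-negative CD4 T cells, with exact 95% intervals for cells at their own depth (circles) and thinned to 2000 UMIs (squares). Among T cells JQF had 1.32% at own depth, below NCD at 4.20% and HFD at 3.02% and 2.82%.

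To describe what Treg express beyond Foxp3, UMIs were summed per library and compared with Foxp3-negative CD4 T cells (CD3 sum at least 2, Cd4 at least 1) of the same library, 4 pairs in all. The comparison cells numbered 242 in NCD, 351 and 278 in the HFD pair and 921 for JQF. Zbtb16, the transcription factor of invariant NKT cells, stood at 427, 106, 89.4 and 367 CPM in them and at 0, 15.3, 26.6 and 86.4 CPM in Treg. Of 10571 genes tested, 336 (3.18%) passed edgeR's quasi-likelihood test at an adjusted p of 0.05, with 217 (2.05%) higher and 119 (1.13%) lower in Treg, and 332 of the 336 had the same direction in every library. Core identity genes and tissue effector genes were among those higher in Treg, and helper cytokine genes among those lower. Without HFD replicate 1 the count was 152 genes and without the JQF library 171.

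Most identity genes were higher in Treg. Of 15 core Treg genes 14 were tested, 12 were higher and 0 lower, with a median log2 fold change of 2.22 against -0.02 over all genes. Ikzf2 (chromosome 1, 69531214 to 69687245, GRCm38) encodes Helios, a transcription factor that stabilises the Treg state. It reached 3925 CPM in NCD Treg, 3408 and 3331 in HFD and 2056 in JQF, compared with 514, 329, 364 and 134 in Foxp3-negative CD4 T cells. All 4 Treg sums lay above all 4 comparison sums, and the difference was 3.31 ± 0.20 on the log2 scale (± SE throughout, adjusted p = 0.00025). Tnfrsf9 (4-1BB, an activation receptor) stood at 472, 234, 252 and 266 CPM in Treg and at 63.1, 36.2, 42.6 and 31.4 in the others (2.77 ± 0.16, adjusted p = 0.00025). Itgb8, an integrin chain that frees active TGF-beta, was at 516, 215, 157 and 127 CPM in Treg and at 57.0, 4.94, 14.0 and 4.90 in the others (4.03 ± 0.37, adjusted p = 0.0012). For Ctla4 the Treg sums were 1568, 672, 1224 and 835 CPM and the others 521, 154, 346 and 159.95 CPM (1.93 ± 0.17, adjusted p = 0.0011), and the lowest Treg sum lay above the highest of the comparison cells. Tnfrsf4 (2.45 ± 0.24), Tnfrsf18 (1.46 ± 0.14) and Ikzf4 (3.34 ± 0.39), which encodes the related factor Eos, were also higher. Il2ra differed less, with 255, 248, 227 and 148 CPM against 71.5, 74.5, 59.4 and 119 CPM (1.42 ± 0.26, adjusted p = 0.024), and its call was lost without HFD replicate 1 (1.31) or without HFD replicate 2 (1.27).

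Among 12 tested suppressive and checkpoint molecules, 4 were higher and 0 lower. Areg was at 459, 342, 213 and 316 CPM in Treg and at 32.9, 18.8, 33.7 and 14.0 CPM in the others (3.76 ± 0.30, adjusted p = 0.00076). Pdcd1, the checkpoint receptor PD-1, was at 159, 202, 169 and 86.4 CPM against 68.8, 42.8, 38.4 and 18.7 CPM (1.89 ± 0.23). Ebi3, a subunit of interleukin-35, and Tigit, an inhibitory receptor, were higher by 2.25 ± 0.44 and 1.67 ± 0.33 on the log2 scale (adjusted p = 0.032 and 0.033). The Tigit call was lost without HFD replicate 1, that of Ebi3 without HFD replicate 2, and both without the JQF library.

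Effector and tissue Treg genes were partly higher. Of 26 effector and tissue Treg genes, 11 were higher and 1 was lower, with a median of 0.64. Il1rl1 (chromosome 1, 40429570 to 40465415) stood at 5.90 CPM in NCD Treg, 89.8 and 121 in HFD and 118 in JQF, against 1.84 to 7.95 CPM in Foxp3-negative CD4 T cells. The NCD value overlapped with the comparison cells and came from 1 cell (4.46 ± 0.58, adjusted p = 0.0056). Klrg1, an inhibitory lectin receptor, was at 23.6, 131, 150.0 and 79.6 CPM against 1.32 to 6.53 CPM (4.07 ± 0.55, adjusted p = 0.0064). Itgae, the epithelial-binding integrin CD103, was at 146, 151, 46.0 and 70.5 CPM against 3.62 to 11.2 CPM (3.80 ± 0.52, adjusted p = 0.0064). The lower member was Cxcr6, a chemokine receptor that marks liver-resident T and NKT cells, at 13.3, 46.0, 31.4 and 45.5 CPM in Treg and 98.7, 171, 131 and 229.9 CPM in the others (-2.31 ± 0.21, adjusted p = 0.0012).

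**Figure D2:**
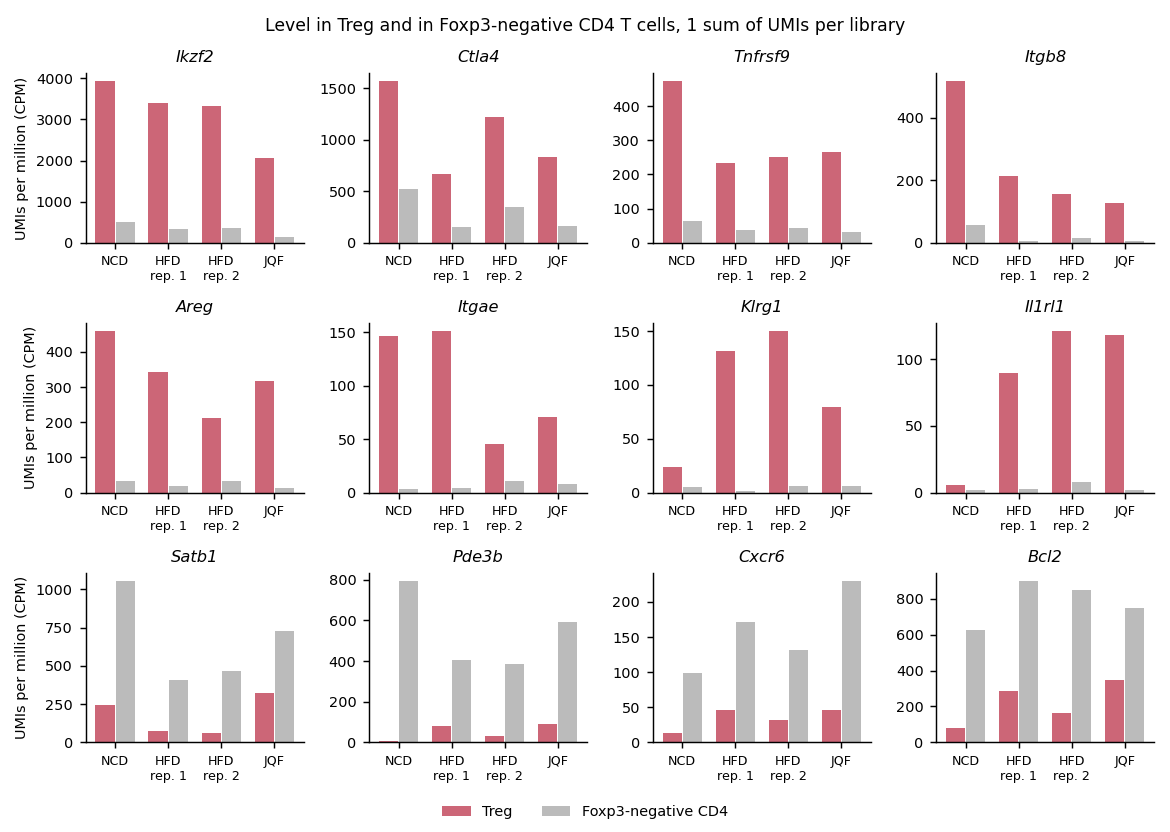
Level of 12 genes in CPM (1 sum of UMIs per library) in Treg (red) and Foxp3-negative CD4 T cells (grey) of NCD, HFD replicates 1 and 2 and JQF, with each vertical axis starting at 0. Ikzf2 was 2056 to 3925 CPM in Treg and 134 to 514 CPM in the others, whereas the last 4 genes, from Satb1 to Bcl2, were lower in Treg in each library.

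Genes of resting and recirculating T cells were partly lower. Of 12 tested, 0 were higher and 3 were lower, with a median of -0.45. Satb1, a chromatin organiser, was at 243, 72.3, 60.5 and 321 CPM in Treg and at 1056, 409.6, 464 and 729 CPM in the others (-2.16 ± 0.27, adjusted p = 0.0048). Ccr7 (-1.37 ± 0.30, adjusted p = 0.045) and Lef1 (-1.02 ± 0.22, adjusted p = 0.047), a factor of resting T cells, had weaker calls. That of Ccr7 was lost on leaving out any 1 of the 4 libraries, and that of Lef1 without either HFD replicate.

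Of 14 helper lineage genes, 4 were lower and 2 higher. The lower ones were Tbx21 (the Th1 factor T-bet), Ifng (interferon-gamma), Il4 (interleukin-4) and Eomes, a factor of cytotoxic T and NK cells. Il4 was listed at 0 in NCD Treg and in HFD replicate 2, at 4.38 CPM in HFD replicate 1 and at 20.5 CPM in JQF, against 275, 45.8, 44.4 and 216 CPM (-4.80 ± 0.64, adjusted p = 0.0062). Tbx21 was at 33.9 to 85.6 CPM against 145 to 257 CPM (-1.55 ± 0.22) and Ifng at 25.1 to 99.2 CPM against 230.0 to 451 CPM (-2.42 ± 0.36), and both calls were lost without the JQF library. The higher ones were Rora, a nuclear receptor also counted among the tissue Treg genes, and Ccr6, a chemokine receptor of Th17 cells and of some Treg, at 20.7, 74.5, 50.8 and 72.8 CPM against 1.21 to 11.7 CPM (2.99 ± 0.33, adjusted p = 0.0028).

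Signalling lists moved little. In the interleukin-2 and STAT5 list of 15 genes, 2 were higher and 1 lower. Besides Il2ra, the kinase gene Pim1 was higher (0.69 ± 0.13, adjusted p = 0.024), a call lost without either HFD replicate or without JQF. Bcl2, which protects cells from death, was at 78.2, 289, 164 and 350.3 CPM in Treg against 625, 899.9, 849 and 751 CPM (-2.03 ± 0.29, adjusted p = 0.0080). Stat5b, the signal transducer of the receptor, was at 432 to 537 CPM against 237 to 402 CPM and did not pass (0.68 ± 0.16, adjusted p = 0.072). In the T cell receptor and costimulation list, Cd27, a costimulatory receptor, did not pass (0.67 ± 0.18, adjusted p = 0.10). Among 20 interferon-stimulated genes 1 was higher, Ifi27l2a, at 534, 1110.5, 1219 and 923 CPM against 142, 443, 448 and 328 CPM (1.5 ± 0.14, adjusted p = 0.0014). Of 16 immediate early and heat shock genes 2 were lower, the chaperones Hspa1a (-1.37 ± 0.18) and Hspa1b (-1.21 ± 0.17), 2 nearly identical genes whose reads may be split between them. None of 15 cell cycle, 11 clock and 19 metabolism genes tested by edgeR passed, and Hif1a, the hypoxia factor, had the lowest p of the metabolism list (0.65 ± 0.15, adjusted p = 0.056). Over all 10571 genes, 1448 had an unadjusted p under 0.05.

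Outside the lists, the 10 genes with the largest rise that met the rule for naming included Neb (nebulin, a muscle filament gene), at 198, 217, 145 and 50.04 CPM in Treg and 4.28 to 24.7 CPM in the others (3.82 ± 0.40, adjusted p = 0.0023). Slc24a3, a sodium and calcium exchanger, was at 47.8 to 65.3 CPM against 1.65 to 6.55 CPM (3.64 ± 0.35), and Bicd1, a dynein adaptor, at 35.4 to 83.2 CPM against 3.37 to 7.25 CPM (3.48 ± 0.30). Gm28112 (3.61 ± 0.27) lies within an intron of Ikzf2 on the same strand (chromosome 1, 69660187 to 69662061), so its reads cannot be told apart from unspliced Ikzf2. The rule for naming required each of these genes to be higher in Treg in every library.

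The 10 named genes that were lower in Treg included Il4, given above. Pde3b, a phosphodiesterase, was at 8.85, 78.8, 31.4 and 91.0 CPM in Treg against 795, 404, 384 and 591 CPM (-3.53 ± 0.53, adjusted p = 0.0089). The non-coding 4933406I18Rik (-4.91 ± 0.54) starts next to Pde3b on the opposite strand of chromosome 7 (114315479 to 114415161, with Pde3b at 114415281 to 114539251). Gzmk, a granzyme, reached at most 8.76 CPM against 13 to 129 CPM (-3.85 ± 0.51). Lower too were Cd160 (-3.75 ± 0.54), Ly6c2 (-3.29 ± 0.38), the interleukin-12 receptor chain Il12rb2 (-3.20 ± 0.44), the chemokine Xcl1 (-3.17 ± 0.69), the lipid flippase Atp8a2 (-3.14 ± 0.49) and the calcium-binding Mctp2 (-2.75 ± 0.49). The Xcl1 call was lost without either HFD replicate.

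Ighm, the immunoglobulin mu heavy chain and a B cell gene, was higher in Treg. It was at 238, 436, 472 and 400.3 CPM in Treg and at 30.5, 68.9, 87.5 and 76.1 CPM in Foxp3-negative CD4 T cells (2.56 ± 0.16, adjusted p = 0.00025). No Treg sum overlapped with the comparison. It was found in 28 of 34, 51 of 61, 36 of 60 and 38 of 49 Treg, and 3 cells held between 20.1% and 32.3% of the B cell list in each library. Of the 4 genes of that list, Ighm included, 3 were at 0 in Treg of NCD and HFD replicate 1 and 2 in the others. In barcodes with at most 100 UMIs the list stood at 306 to 536 CPM. The source of these UMIs in Treg was not tested.

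Within Treg, cells were compared for genes of known subsets after each was thinned to 2000 UMIs. Of 204 Treg, 201 reached that depth. B cells of the same library, thinned alike, gave the background of free RNA. For 17 genes that B cells should lack, in 4 libraries, the interval in Treg lay above that in B cells in 53 of 68 cases. Ikzf2 was found in 94.1% of NCD Treg, 90.2% and 80.7% of HFD Treg and 79.6% of JQF Treg, against 0.563% to 2.06% of B cells. Ctla4 was found in 88.2%, 54.1%, 70.2% and 53.1%, against 1.41% to 7.78%. Areg was found in 35.3%, 21.3%, 21.1% and 24.5% of Treg, and at most 0.432% of B cells, and these Treg intervals overlapped. Gata3, a factor of tissue Treg and Th2 cells, was found in 38.2%, 24.6%, 29.8% and 38.8%, and in 17% to 23.9% of Foxp3-negative CD4 T cells, where only the JQF intervals did not overlap. Itgae was found in 20.6% and 24.6% of Treg in NCD and HFD replicate 1 and in 8.77% and 8.16% in HFD replicate 2 and JQF. The HFD pair thus differed as much as the groups for this gene.

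Cells with a UMI of Klrg1, Il1rl1 or Areg made up 38.2% of NCD Treg, 34.4% and 47.4% of HFD Treg and 34.7% of JQF Treg at that depth, and the intervals overlapped across libraries. At their own depth the shares were 70.6%, 44.3%, 56.7% and 44.9%.

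**Figure D3:**
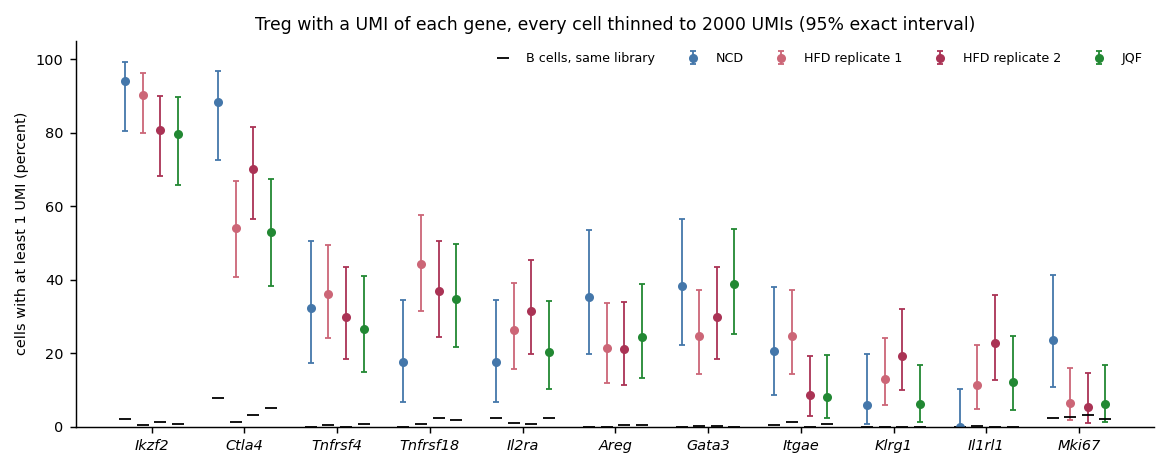
Percent of Treg with at least 1 UMI of each gene in NCD, HFD replicates 1 and 2 and JQF, each cell thinned to 2000 UMIs, with exact 95% intervals, and dashes for B cells of the same library. Ikzf2 was found in 79.6% to 94.1% of Treg, Il1rl1 in 0% to 22.8%, and Mki67 in 23.5% of NCD Treg against 5.26% to 6.56% of the others.

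The effect of the high-fat diet was examined by comparing HFD with NCD within Treg. Of 15 cell cycle genes 7 were lower in HFD, and of 16 immediate early and heat shock genes 4 were higher. Of 7584 genes, 172 (2.27%) passed edgeR's test, with 75 (0.989%) higher and 97 (1.28%) lower in HFD. The test had 1 residual degree of freedom, from the HFD pair, and took the single NCD library to vary like HFD. The count of calls differed between settings. So did the prior degrees of freedom, the weight that edgeR gives to variance shared over all genes. They were 8.05 in this fit, 5.30 and 4.79 under both limits on cells given next, and infinite without predicted doublets and with Cd4 required. The part of this weight in the counts was not tested. With the Treg over 20 UMIs of other types removed, which took 6 Treg from NCD, 4 and 5 from HFD and 1 from JQF, 0 genes passed in edgeR while 1120 had an unadjusted p under 0.05. With a limit of 10% mitochondrial UMIs, which removed 1 Treg of HFD replicate 1, 3 passed and 1128 had an unadjusted p under 0.05. Without predicted doublets 560 passed, and with Cd4 required of Treg 467. DESeq2 on all Treg called 64. The direction was kept by 160 of 162 main calls still tested without those cells and by 172 of 172 at the mitochondrial limit. Each gene named below as higher or lower lost its call under both limits on cells.

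Of the 12 lists, cell cycle genes had the largest median shift. Of 15 tested, 7 were lower and 0 higher in HFD, with a median log2 fold change of -2.38 against 0.02 over all genes. Top2a, the topoisomerase of dividing cells (chromosome 11, 98992943 to 99024189), was at 491 CPM in NCD Treg, 24.1 and 46.0 in HFD and 56.9 in JQF (-3.73 ± 0.36, adjusted p = 0.0038). Mki67, the proliferation marker Ki-67, was at 481, 28.5, 87.1 and 148 CPM (-2.99 ± 0.45, adjusted p = 0.017). Tubulin Tuba1b (-2.16 ± 0.28) was lower too. The centromere protein Cenpf was at 201 CPM in NCD Treg, 2.19 and 21.8 in HFD and 34.1 in JQF (-4.00 ± 0.62), with 1 and 9 UMIs in the HFD pair. The size of these drops moved with the HFD library, with Cenpf at -3.10 and Mki67 at -2.38 without HFD replicate 1, and at -6.30 and -4.0 without HFD replicate 2, which gave no test. With cells thinned to 2000 UMIs the difference of Tuba1b was -0.85 (adjusted p = 0.39), that of Mki67 -2.31 (adjusted p = 0.051) and that of Top2a -2.86 (adjusted p = 0.0098). The NCD sum lay above the other 3 for each. Top2a and Cenpf fell by more than any gene named below outside the lists, but were not among those genes. They met the other conditions for naming, so they exceeded its limit of 50% of UMIs in 3 cells. Of all UMIs in the NCD Treg sum, 22.4% came from 3 cells. Whether these were the same cells was not tested. Mki67 was found in 13 of 34 NCD Treg at own depth, and 3 of those cells held 51.5% of its UMIs. In thinned cells it was found in 23.5% of NCD Treg (10.7% to 41.2%), 6.56% (1.82% to 15.9%) and 5.26% (1.10% to 14.6%) of HFD Treg and 6.12% (1.28% to 16.9%) of JQF Treg, with 2.16% to 3.21% in B cells. The NCD interval overlapped with those of the others. With the Treg over 20 UMIs of other types removed the list median was -2.39, and 0 of the 15 passed.

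Immediate early genes were partly higher. Of 16 immediate early and heat shock genes, 4 were higher and 0 lower, with a median of 0.70. Fos was at 429 CPM in NCD Treg, 1614 and 1393 in HFD and 2181 in JQF (1.89 ± 0.23, adjusted p = 0.0080). Zfp36, which destabilises cytokine mRNA, was at 274, 1075, 866 and 712 CPM (1.90 ± 0.28, adjusted p = 0.017). Jund (1.64 ± 0.28) and Jun (1.35 ± 0.28), partners of Fos in AP-1, were higher as well, and in each case NCD was the lowest of the 4 libraries.

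Among the 14 core Treg genes, 0 passed between HFD and NCD, with a median of -0.01. Itgb8 was at 516 CPM in NCD and 215 and 157 CPM in HFD (-1.39 ± 0.30, adjusted p = 0.053), Lrrc32, the anchor of latent TGF-beta, at 97.4, 11 and 33.9 CPM (-2.05 ± 0.56, adjusted p = 0.11), and Tnfrsf18 at 146, 346 and 261 CPM (1.14 ± 0.33, adjusted p = 0.13). Of 26 effector and tissue Treg genes 3 were higher. They were Il1rl1 (4.18 ± 0.55, adjusted p = 0.0091), Klrg1 (2.64 ± 0.41, adjusted p = 0.018) and S100a4 (1.27 ± 0.27, adjusted p = 0.047), a calcium-binding protein of memory and tissue T cells. With thinned cells the difference of Klrg1 was 1.42 (adjusted p = 0.48). Il1rl1 was found in 1 NCD Treg, 31 HFD Treg and 9 JQF Treg. In thinned cells it was found in 0 of 34 NCD Treg (exact upper limit 10.3%), 11.5% and 22.8% of HFD Treg and 12.2% of JQF Treg. Ccr2, the receptor that draws cells to inflamed tissue, was at 44.3, 129 and 131 CPM and did not pass (1.63 ± 0.37, adjusted p = 0.062).

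In the resting list, Klf2, which controls exit from tissue, was higher at 277 CPM in NCD and 924 and 779 CPM in HFD (1.70 ± 0.28, adjusted p = 0.020). Satb1 was lower (-1.79 ± 0.30, adjusted p = 0.022). Of 19 interferon-stimulated genes 2 were higher. Ifit1, an antiviral protein, was at 75.3 CPM in the NCD sum, 852 and 522 in the HFD sums and 680.1 in that of JQF (3.27 ± 0.41, adjusted p = 0.0085), and was found in 11.8%, 36.1%, 40.4% and 44.9% of thinned Treg. Ifi27l2a was at 534, 1110.5 and 1219 CPM (1.21 ± 0.24, adjusted p = 0.040). None of the suppressive, helper, interleukin-2, clock and metabolism lists had a member that passed in edgeR.

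**Figure D4:**
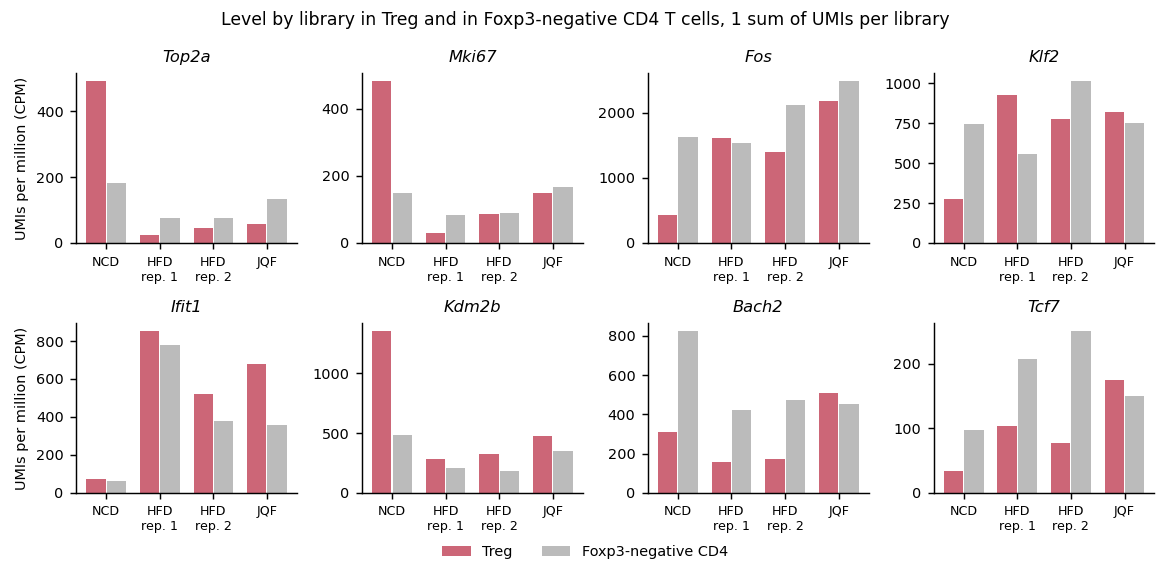
Level of 8 genes in CPM (1 sum of UMIs per library) in Treg (red) and Foxp3-negative CD4 T cells (grey) of each library, with each vertical axis starting at 0. Top2a was 491 CPM in NCD Treg and 24.1 to 56.9 CPM in the others, whereas Fos was lowest in NCD Treg at 429 CPM.

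Outside the lists, the named genes that fell between NCD and HFD included Kdm2b, a histone demethylase, at 1352 CPM in NCD Treg against 283 and 322 CPM (-2.08 ± 0.25, adjusted p = 0.0080). The sorting protein gene Vps37b was at 1313 against 243 and 404 CPM (-1.94 ± 0.31), Got1, an aspartate aminotransferase, at 416 against 116 and 67.7 CPM (-2.09 ± 0.34), and the chaperonin Hspd1 at 550.4 against 169 and 104 CPM (-1.92 ± 0.33). Rbbp8, a DNA repair factor, was at 325 against 37.2 and 99.2 CPM (-2.18 ± 0.44), and differed by -1.62 without HFD replicate 1 and -3.05 without HFD replicate 2. The kinesin Kif20b (-3.17 ± 0.68, and -2.35 and -4.97 in the same order) and the replication helicase Mcm7 (-2.68 ± 0.52) belong to the cell cycle as well. Wdr89 (-2.03 ± 0.41) and Pcyt1a (-1.93 ± 0.32), an enzyme of phosphatidylcholine synthesis, completed the 10 together with Tuba1b.

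The named genes that rose beyond Il1rl1, Ifit1 and Klrg1 were Hdac9, a histone deacetylase, at 8.85 CPM in NCD against 120.5 and 77.4 CPM (3.53 ± 0.54, adjusted p = 0.018), Oasl1, an interferon-stimulated gene, at 25.1 against 208 and 109 CPM (2.74 ± 0.51), and the ubiquitin ligase Nedd4l at 11.8 against 65.7 and 82.2 CPM (2.70 ± 0.53). The RNA-editing enzyme Apobec1 (2.96 ± 0.61) and the non-coding E330020D12Rik (2.56 ± 0.44) were also among them. H2-Ab1 (5.28 ± 0.68) and H2-Eb1 (3.77 ± 0.74, and 3.07 without HFD replicate 2) encode MHC class II chains of antigen-presenting cells. They were at 1.48 and 4.43 CPM in NCD Treg, 56.9 and 37.2 in HFD replicate 1, and 70.1 and 84.7 in HFD replicate 2, and the macrophage markers given above differed in the same direction. The part of such cells in these 2 results was not tested.

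To learn whether such differences were particular to Treg, the change from NCD to HFD in Treg was set against that in Foxp3-negative CD4 T cells in 1 model. Of 11654 genes 594 (5.1%) passed edgeR's test. Of 15 cell cycle genes 13 had a more negative change in Treg, and of 16 immediate early and heat shock genes 9 a more positive one. Markers of other cell types were called as well, among them 4 of 7 endothelial genes. Endothelial markers summed to 1849 CPM in NCD Foxp3-negative CD4 T cells against 7.58 and 135 CPM in HFD, and to 322, 0 and 305 CPM in Treg. The iNKT, gamma-delta and type 17 list summed to 439.6 CPM in these NCD cells against 157 and 153 CPM in HFD, and to 47.2, 116 and 79.8 CPM in Treg. Of its 4 tested genes Zbtb16, a factor of innate-like T cells, was called with a more positive change in Treg and Il23r with a more negative one. Zbtb16 was at 427, 106 and 89.4 CPM in the comparison cells and had 0, 7 and 11 UMIs in Treg, so that no fold is given. The part of either list in the result was not tested. For Top2a the Foxp3-negative CD4 sums were 183 CPM in NCD and 75.5 and 75.3 CPM in HFD, a smaller drop than in Treg, with a difference of log2 fold changes of -2.57 ± 0.39 (adjusted p = 2.7e-05). Mki67 (-2.36 ± 0.39), Tuba1b (-2.23 ± 0.32) and Cenpf (-2.60 ± 0.63) gave the same direction. Fos was at 1625 CPM in NCD and 1543 and 2124 CPM in HFD in Foxp3-negative CD4 T cells, and differed in its change by 1.64 ± 0.22 (adjusted p = 2.9e-06), as did Jun (1.52 ± 0.22), Jund (0.96 ± 0.22) and Zfp36 (0.85 ± 0.26). Klf2 (1.59 ± 0.29) and Klrg1 (3.18 ± 0.79) had a more positive change in Treg. The lists they belong to went both ways. Of 26 effector and tissue Treg genes, Klrg1 included, 2 had a more positive change and 3 a more negative one. Of 12 resting genes, Klf2 included, 1 had a more positive change and 1 a more negative one. Among 14 core Treg genes 1 had a more positive change and 2 a more negative one. Il1rl1 did not pass (2.87 ± 1.05, adjusted p = 0.12), nor did Satb1 (-0.60 ± 0.31, adjusted p = 0.33). Ifit1 went from 64.6 CPM in NCD to 780.3 and 379 CPM in HFD in Foxp3-negative CD4 T cells and did not pass (difference 0.06 ± 0.31, adjusted p = 0.97). Without the cells over 20 UMIs of other types, 483 genes passed, of which 288 were among the 594. They held 13 of 15 cell cycle and 8 of 16 immediate early genes, and the call of Zfp36 was lost. The prior degrees of freedom were infinite in that fit, against 36.3 with all cells, so its p-values rest on variance shared over genes. With cells thinned to 2000 UMIs, 9 passed, none of them a cell cycle gene in edgeR (median -1.70 over the 11 tested) and 2 of them immediate early genes, while DESeq2 called 18.

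The effect of the formula was examined by comparing JQF with HFD within Treg. This comparison shares the HFD libraries with the one above. Of 7584 genes 5 (0.0659%) passed edgeR's test, with 4 (0.0527%) higher and 1 (0.0132%) lower in JQF, and 553 had an unadjusted p under 0.05. The 5 genes were chosen for naming after their values were seen, other than Satb1. Satb1 was at 72.3 and 60.5 CPM in HFD Treg and 321 CPM in JQF Treg (2.34 ± 0.30, adjusted p = 0.043), with NCD at 243 CPM. The JQF and NCD sums lay above both HFD sums. It was found in 8.20% and 3.51% of thinned HFD Treg, 30.6% (18.3% to 45.4%) of JQF Treg and 20.6% of NCD Treg. The other 4 lie in genes of antigen-presenting cells. H2-Ab1 was at 56.9 and 70.1 CPM in HFD and 514 CPM in JQF (3.09 ± 0.30), Cd74, the invariant chain, at 298, 377 and 1437 CPM (2.16 ± 0.26) and the protease inhibitor Cst3 at 171, 201 and 855 CPM (2.27 ± 0.28). Of their UMIs in JQF, 97.8%, 89.2% and 88.8% came from 3 Treg. Lyz2, the lysozyme of macrophages, was at 401 and 525 CPM in HFD, 25.0 in JQF and 0 in NCD (-4.12 ± 0.44), and 3 cells held 92.2% of its HFD UMIs. With at least 2 Foxp3 UMIs required, the differences of H2-Ab1, Cd74 and Cst3 turned to -0.94, -0.72 and -0.49, and 1 gene passed. With a limit of 10% mitochondrial UMIs, or without cells over 20 UMIs of other types, 0 genes passed in edgeR (483 and 459 at an unadjusted p under 0.05), while DESeq2 on all Treg called 2.

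Of 12 resting T cell genes tested, 1 was higher, 0 were lower and 10 had a positive difference, with a median of 0.72 against -0.03 over all genes. Bach2, a factor that holds T cells in a resting state, was at 158 and 174 CPM in HFD and 509 CPM in JQF (1.69 ± 0.28, adjusted p = 0.14). Of 15 cell cycle genes, all had a positive difference with a median of 0.57, and 0 passed in edgeR. When thinned, 4 of the 8 tested had a negative difference. Core Treg genes had a median of -0.27 with 0 of 14 called. Ikzf2 was at 3408 and 3331 CPM in HFD and 2056 CPM in JQF (-0.64 ± 0.16, adjusted p = 0.36).

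The genes with the lowest unadjusted p in each direction did not pass either. Higher in JQF were Dennd4a (1.01 ± 0.19, adjusted p = 0.22), the chaperone Hsp90ab1 (0.88 ± 0.17), the transcription factor Bhlhe40 (1.46 ± 0.29) and Nfkb1 (1.01 ± 0.21), with adjusted p of 0.23 to 0.26 for the last 3. Lower in JQF were Pde7b (-4.16 ± 0.66, adjusted p = 0.11), the inhibitory receptor Cd200r1 (-2.04 ± 0.39, adjusted p = 0.22), Apobec1 (-3.39 ± 0.70, adjusted p = 0.26), Adap1 (-2.51 ± 0.54, adjusted p = 0.28) and Socs2 (-3.05 ± 0.67, adjusted p = 0.29). Dennd4a, Bhlhe40 and Nfkb1 were higher in NCD than in both HFD libraries as well. The HFD libraries are shared, so genes picked as higher in JQF tend to lie above HFD in NCD too. Dennd4a was at 2728 CPM in NCD Treg, 975 and 1067 in HFD and 1949 in JQF.

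Set against Foxp3-negative CD4 T cells, 47 of 11654 genes (0.403%) differed in their change from HFD to JQF. Of 12 resting genes 3 had a more positive change in Treg. Bach2 was at 421, 475 and 455 CPM in Foxp3-negative CD4 T cells of HFD and JQF (difference 1.62 ± 0.28, adjusted p = 0.0023). Satb1 (1.55 ± 0.31, adjusted p = 0.010) and Tcf7 (1.58 ± 0.37, adjusted p = 0.039), a factor of resting and memory T cells, were the others. Tcf7 was at 103 and 77.4 CPM in HFD Treg and 175 CPM in JQF Treg, against 207, 250.3 and 150.0 CPM in Foxp3-negative CD4 T cells. Of 12 suppressive and checkpoint genes tested 1 had a more positive change and 1 a more negative one. Il10, the suppressive cytokine, was at 48.2, 143 and 109 CPM in Treg and at 23.7, 101 and 10.7 CPM in the others (2.68 ± 0.44, adjusted p = 0.0014). The HFD pair differed by more than the groups within Treg, and 93.8% of the JQF UMIs came from 3 cells. Fgl2, a secreted molecule with suppressive activity, was at 151, 123 and 72.8 CPM in Treg and at 67.2, 80.0 and 141 CPM in the others (-1.83 ± 0.41, adjusted p = 0.027). Il2ra fell relative to the others (-1.49 ± 0.35, adjusted p = 0.041), from 248 and 227 CPM to 148 CPM in Treg while the others stood at 74.5, 59.4 and 119 CPM, as did Socs2, a brake on cytokine signalling (-3.27 ± 0.75, adjusted p = 0.032). Markers of other cell types moved in the comparison cells. The iNKT, gamma-delta and type 17 list summed to 157, 153 and 449 CPM there, with none of 4 tested genes called, and to 116, 79.8 and 150.1 CPM in Treg. Hepatocyte markers summed to 38.9, 63.6 and 177 CPM there and to 136, 131 and 88.7 CPM in Treg, and Alb was called (-2.42 ± 0.43, adjusted p = 0.0024). Without the cells over 20 UMIs of other types Alb differed by 0.17 and was not called, and Fgl2 differed by -2.68 (adjusted p = 5.7e-06 in edgeR). The prior degrees of freedom were infinite in that fit. The part of the iNKT, gamma-delta and type 17 markers in these differences was not tested. The calls of Tcf7 and Il2ra were lost without the cells over 20 UMIs of other types. Thinned to 2000 UMIs, 2 genes passed, Bach2 among them, and DESeq2 called 1.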

How the data were processed

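Livers of 3 groups of mice were profiled by droplet single-cell RNA sequencing, with 1 NCD, 2 HFD and 1 JQF library. Filtered matrices of raw UMI counts for 32285 genes were deposited by the authors. The submitters' processing notes name Cell Ranger 6.0.1 and Seurat 4.0.3 with mm10, whereas the matrix headers name another Cell Ranger version, so whether intronic reads were counted is not settled. Summed Treg counts ranged from 413439 to 677717 UMIs per library. Members and gene lists were chosen with earlier results of these data known.

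UMIs were summed per library and cell gate and fitted with edgeR 4.0.16 (R 4.3.3) by quasi-likelihood with TMM factors, filterByExpr and Benjamini-Hochberg adjustment at 0.05. Treg and Foxp3-negative CD4 T cells were compared with the library as a block (3 residual degrees of freedom). Group fits had 1, so single NCD and JQF libraries were taken to vary like HFD. Each gene's variance was drawn towards the trend over all genes. The prior degrees of freedom were 8.05 in the Treg group fit and 36.3 in the group fit against Foxp3-negative CD4 T cells. The p-values of group fits thus rest more on variance shared over genes than on each gene's own spread, and cover these libraries only. SE is the log2 fold change over the root of F. CPM uses each sum's own total. Other-type markers came from 11 lists, and predicted doublets (Scrublet scores, 0.8% per 1000 barcodes) were kept, with their removal as an alternative. Of each list up to 4 genes with the lowest p, then the highest level, were named. Outside the lists, the 10 largest changes per direction past the threshold were named, with at least 50 CPM, the same direction in every library and at most 50% of UMIs in 3 cells. Where fewer than 5 passed, the 5 lowest p were given. DESeq2 1.42.0, thinning, other cell limits and left-out libraries were alternatives. The removal of cells with other-type markers and the share among Treg plus Foxp3-negative CD4 T cells were added after seeing the data. On simulated counts of 10576 genes the paired fit recovered 60% of 2-fold and 99% of 4-fold changes, and on 7588 genes the group fit recovered 11% and 85%. The changed genes were drawn only from those at or above the median mean count, with the same expression profile in every library. Coordinates are GENCODE M21 on GRCm38, matched for 32235 gene IDs. Intervals cover counting error only. Some genes are not reported here.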

Additional observations from a re-analysis of the deposited data

Results flagged for a closer look

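For 25 results the change between groups in Treg differed from that in Foxp3-negative CD4 T cells of the same libraries. This was by a test of the difference itself (edgeR's quasi-likelihood test, adjusted p under 0.05), given here as the difference of log2 fold changes. It was looked up only for a set of the genes named above, many of them picked by their values in these same Treg. Over all 11654 genes, 594 (5.1%) passed for HFD against NCD and 47 (0.403%) for JQF against HFD. These counts fell to 9 and 2 when thinned, and to 18 and 1 by DESeq2. From NCD to HFD, cell cycle genes had a more negative change in Treg, with Top2a at -2.57, Mki67 at -2.36, Cenpf at -2.60, Tuba1b at -2.23, Kif20b at -2.73 and Mcm7 at -2.91. Hspd1 (-1.23) did so too. Immediate early genes had a more positive one, with Fos at 1.64, Jun at 1.52, Jund at 0.96 and Zfp36 at 0.85, as did Klf2 (1.59), Klrg1 (3.18) and Nedd4l (3.34). Of the cell cycle genes, Top2a, Mki67 and Cenpf had over 50% of their UMIs in 3 cells, as given above.

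From HFD to JQF, Satb1 (1.55), Bach2 (1.62), Tcf7 (1.58) and Il10 (2.68) had a more positive change in Treg than in the other cells, and Il2ra (-1.49), Socs2 (-3.27) and Fgl2 (-1.83) a more negative one, as had the hepatocyte gene Alb (-2.42). The Il10 level of JQF Treg (109 CPM) lay between the HFD pair (48.2 and 143 CPM), while the other cells were at 23.7 and 101 CPM in HFD and 10.7 CPM in JQF. Genes of antigen-presenting cells also differed, with H2-Ab1 at 1.99, Cd74 at 1.19 and Lyz2 at -3.74. In these 3 the UMIs of the higher side came mostly from 3 Treg.

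Outside the comparisons, 36 Foxp3-positive T cells held a Cd8 UMI and were not counted as Treg. Of these, 88.9% carried at least 3 of the 5 other Treg markers, at a median of 14177.5 UMIs per cell against 7186.5 in Treg. No B cell held a Foxp3 UMI.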

How the results depend on the processing

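Direction was kept under each alternative run by all named genes in Treg against Foxp3-negative CD4 T cells (675 of 675 values) and in HFD against NCD (406 of 406). It was kept by 186 of 189 values in JQF against HFD. In the comparisons of change with Foxp3-negative CD4 T cells it was kept by 46 of 49 for HFD and 31 of 32 for JQF. Those last comparisons were run only without scaling factors, by DESeq2, thinned and without other-type cells. Most genes were named for a low p or, outside the lists, only with the same direction in every library or both HFD libraries. The alternatives reuse the same cells, so these tallies were largely set by that choice and do not measure robustness. Where a count moved, the cause was not tested. The 336 genes of Treg against Foxp3-negative CD4 T cells became 830 without a gene filter, 653 against all Foxp3-negative CD8-negative T cells, and 152 to 495 with 1 library left out. The 172 genes of HFD against NCD became 268 with DESeq2 size factors, 64 by DESeq2, 656 without a gene filter, 467 with Cd4 required, 560 without predicted doublets, 3 at 10% mitochondrial UMIs and 0 without other-type cells in edgeR (1120 at an unadjusted p under 0.05). In the same order, the 5 genes of JQF against HFD became 14, 2, 147, 85, 57, 0 and 0 (483 and 459 at an unadjusted p under 0.05 for the last pair), 1 with at least 2 Foxp3 UMIs and 22 when thinned. Set against Foxp3-negative CD4 T cells, the 594 genes for HFD became 18 by DESeq2 and 9 when thinned, and the 47 for JQF became 81 without scaling factors, 1 by DESeq2 and 2 when thinned.

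Reversed values were those of Satb1 (0.22 thinned, 0.39 without other-type cells) and Ifit1 (-0.16 thinned) in the HFD change against Foxp3-negative CD4 T cells, that of Alb (0.17 without other-type cells) in the JQF change against them, and those of Cd74 (-0.72), Cst3 (-0.49) and H2-Ab1 (-0.94) in JQF against HFD with at least 2 Foxp3 UMIs.

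In the order NCD, HFD replicate 1, HFD replicate 2 and JQF, the Treg share of T cells became 2.72%, 2.08%, 1.88% and 0.779% at 2 Foxp3 UMIs, and 2.20%, 2.01%, 1.80% and 0.679% when thinned to 2000 UMIs. Thinned to 3000 UMIs it was 2.42% in NCD, 1.91% and 2.24% in HFD replicates 1 and 2, and 0.930% in JQF. With other denominators it was 0.569%, 0.936%, 0.585% and 0.574% of kept cells, 6.58%, 6.56%, 7.60% and 1.73% of CD8-negative T cells, and 12.3%, 14.8%, 17.8% and 5.05% of Treg plus Foxp3-negative CD4 T cells.

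Leaving out an HFD library left no residual degrees of freedom in the group fits and gave no test. Groups could not be compared in pairs, because the labels number replicates within groups and name no pairing of libraries between groups. Depth limits what 34 to 61 Treg per library can show. On simulated counts of HFD against NCD in Treg the fit found 11% of 2-fold changes among genes at or above the median mean count. A gene not called there may thus still differ. JQF against HFD was not simulated.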
